A study of Rattus norvegicus with 8 samples.

Results

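The pancreatic acinar cell makes, stores and secretes the digestive enzymes, and 32 acinar genes were followed here in fetal rat islet preparations. The list held 28 genes of enzymes, enzyme inhibitors, cofactors and granule proteins and 4 genes of transcription factors (Bhlha15, Rbpjl, Ptf1a and Nr5a2). It was drawn up from what acinar cells are known to express, but with earlier results of these data known. The shares of all genes given below are therefore a description and not an independent test of the list. Of the 32 genes, 28 had a probe set annotated to 1 gene, out of 14506 such genes on the array. Where a gene had several such probe sets, the brightest was used. Amy1a was found under its current symbol, Amy1. Prss3 had only probe sets annotated to several genes, Try4 and Spink3 are older names of more than 1 gene, and Try5 had no match, so these 4 genes have no value here.

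The arrays came from Sprague-Dawley rats. In the IUGR group (intrauterine growth restriction), 4 dams had surgery on embryonic day 18 that restricts fetal growth, and in the sham group 4 dams had a sham operation on that day. Islets were isolated on embryonic day 19 and all islets of a litter were pooled, so each of the 8 arrays is 1 litter and the replicate is the litter (n = 4 per group). The labels name no agent, allele or cell sort, and they describe neither the operation itself nor the purity of the islets. Values are log2 expression, on which a difference of 1 is a 2-fold difference in signal. The array gives each gene a signal on its own scale, so levels of different genes were not ranked.

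As background, acinar cells arise from tip cells of the branching pancreatic epithelium, which share their origin with duct and endocrine cells. PTF1A, a basic helix-loop-helix protein, binds DNA together with a common helix-loop-helix partner and RBPJL in a trimeric complex that drives the enzyme genes, NR5A2 acts beside it, and BHLHA15 (also called MIST1) governs the secretory apparatus. In rodents, carboxypeptidase A1 and chymotrypsinogen are among the first acinar products, while pancreatic lipase, amylase and the granule membrane protein GP2 reach their adult levels in the rat only after birth.

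Of the hormone genes, Ins1, Ins2 and Gcg lay between 13.15 and 14.24 in all 8 litters, close to the highest value of an array (14.15 to 14.44). The others were lower: Iapp lay between 11.19 and 13.28, Sst between 10.27 and 12.83 and Ppy between 7.93 and 9.46. Acinar transcripts were also found near that limit: Cpa1, Ctrb1, Amy2a3, Pnliprp1 and Clps lay within 1 log2 unit of the highest value on all 4 IUGR arrays. Because each array is a bulk sample, fewer cells of a type and less RNA per cell cannot be told apart.

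Acinar genes were mostly higher in IUGR litters, but none passed the test over all genes. Of the 28 measured genes, 27 had a higher mean in IUGR than in sham litters, against 55.1% of all genes, and Cuzd1 alone was lower. The share over all genes varied with signal level. It was 21.9% for a mean of 6 to 7, and 70.7% to 76.2% in the classes of 1 log2 unit from 8 to 12. The array medians were 8.76 to 8.85 in IUGR litters and 8.48 to 8.81 in sham litters. The median difference of the 28 was 1.03 on the log2 scale, against 0.04 over all 14506 genes, and 15 of the 28 (53.6%) were higher by more than 1, against 2.61% of all genes. With limma's moderated test and Benjamini-Hochberg adjustment over all genes, 0 of the 28 had an adjusted p under 0.05, against 0.234% of all genes that passed as higher. At an unadjusted p under 0.05, 15 of the 28 were higher, against 15.4% of all genes. In 8 of the 28 the lowest IUGR litter lay above the highest sham litter, against 10.0% of all genes. Those 8 were Zg16, Sycn, Gp2, Ctrl, Cela3b, Cel, Bhlha15 and Ptf1a. With each array centred on its median, 4 of the 28 were without overlap, against 2.64% of all genes.

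**Figure D1:**
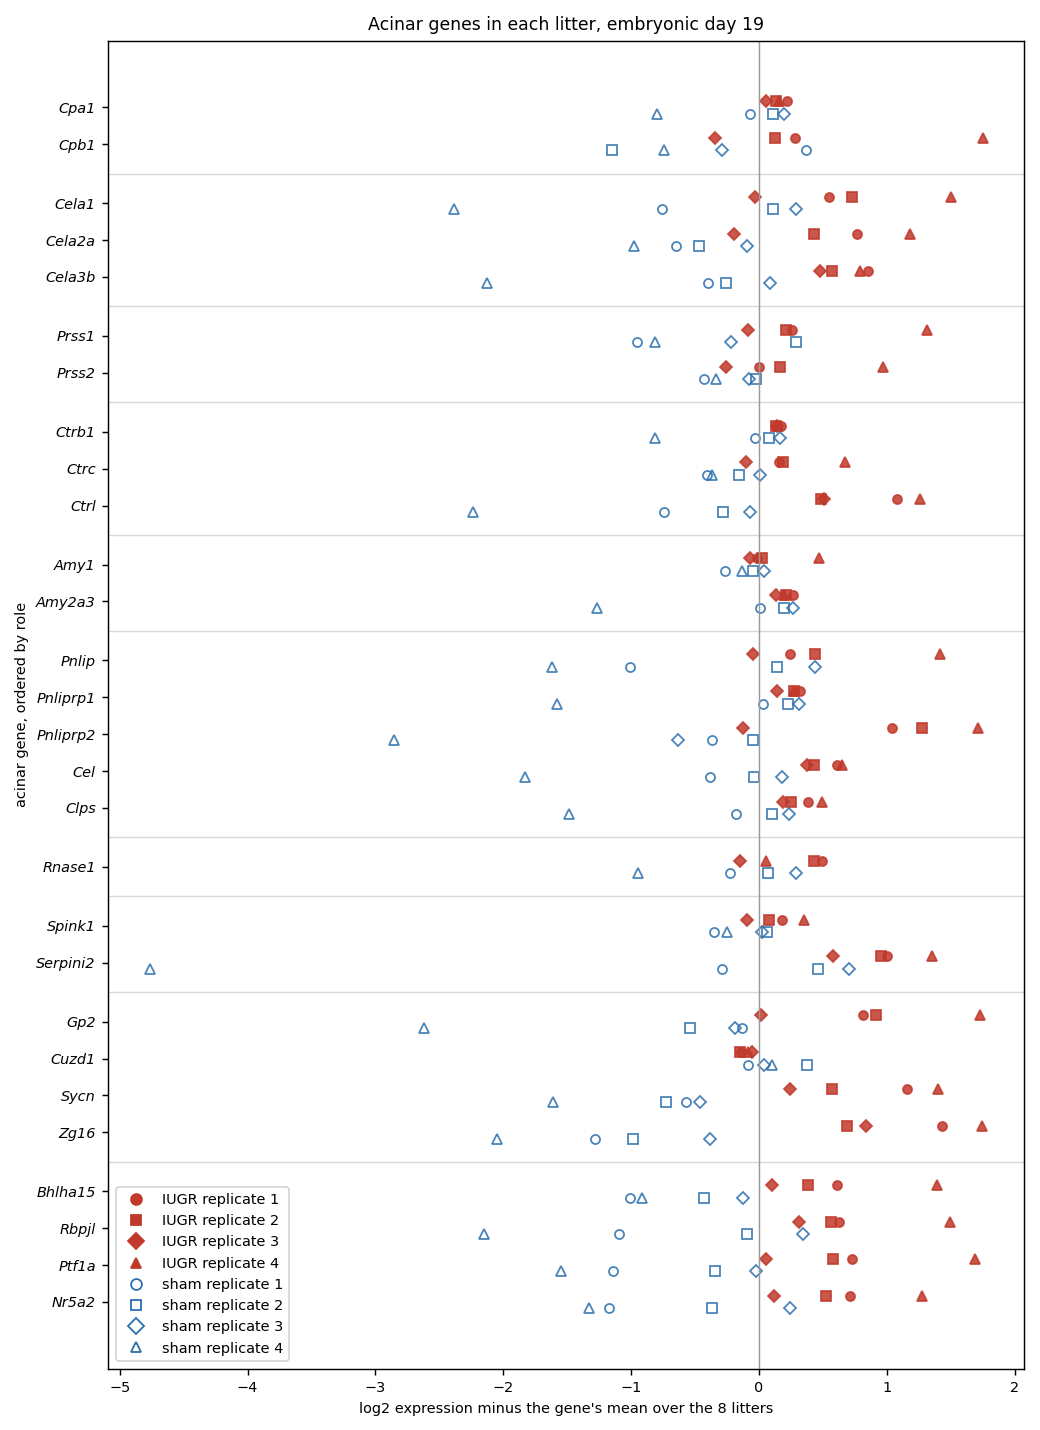
Log2 expression of the 28 acinar genes in each litter, minus the gene's mean over the 8 litters (x axis), with genes ordered by role from carboxypeptidases at the top to transcription factors at the bottom. Filled red symbols are the 4 IUGR litters, open blue symbols the 4 sham litters, and the symbol shape is the replicate number; sham replicate 4 is farthest to the left in 20 of the 28 genes and IUGR replicate 4 farthest to the right in 21.

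The litters of a group were far from alike. Sham replicate 4 was the lowest of the 8 litters in 20 of the 28 genes, against 30.8% of all genes, and sham replicate 1 in 6, against 9.41%. IUGR replicate 4 was the highest in 21 of the 28, against 20.6% of all genes. At the other edge of each group, IUGR replicate 3 was the lowest IUGR litter in 24 genes and sham replicate 3 the highest sham litter in 21. Sham replicate 3 lay above the lowest IUGR litter in 18 of the 28 genes. The gap between the groups was therefore widest between IUGR replicate 4 and sham replicates 1 and 4, and IUGR replicate 3 and sham replicate 3 met in the middle. Without IUGR replicate 3, 18 of the 28 genes were without overlap (12.1% of all genes), and without sham replicate 3 it was 15 (10.8% of all genes).

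Leaving out sham replicate 4 lowered the differences more than it changed their direction. The median of the 28 genes was then 0.70, with 27 still higher, and 2 genes passed as higher, Zg16 and Cela3b, against 1.06% of all genes. Without sham replicate 1 the median was 1.07 and 2 genes passed, Zg16 and Sycn, but 9.29% of all genes then passed as higher, so that count is not above the background. Without both of these litters the median was 0.42, with 24 genes higher and 5 passing (Zg16, Sycn, Ctrl, Cel and Cela3b), against 10.5% of all genes that passed as higher. With array weights estimated by limma, 7 of the 28 genes passed, against 26.4% of all genes as higher, so that count is not above the background. The weights were 7.82 for sham replicate 3, against 0.26, 1.03 and 0.20 for sham replicates 1, 2 and 4. That fit thus leaned mostly on 1 sham litter. Without the 30% dimmest genes 1 of 25 passed, Zg16, against 0.561%.

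The 4 transcription factors were higher in IUGR litters by 1.24 to 1.53, and none passed over all genes. Ptf1a, the DNA-binding core of the acinar program, was 8.90, 8.75, 8.23 and 9.87 in IUGR replicates 1 to 4, against 7.03, 7.83, 8.15 and 6.62 in sham replicates 1 to 4. The groups did not overlap, although IUGR replicate 3 and sham replicate 3 lay close together. The difference was 1.53 ± 0.42 (SE), a 2.88-fold higher signal, with a limma adjusted p of 0.120. Rbpjl, which encodes the acinar partner of PTF1A, was 11.20, 11.14, 10.89 and 12.07 in IUGR litters, against 9.48, 10.48, 10.92 and 8.43 in sham litters. Here sham replicate 3 lay just above IUGR replicate 3, and the difference was 1.50 ± 0.53 (SE, limma adjusted p = 0.143).

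Nr5a2, a nuclear receptor gene, was 11.58, 11.39, 10.98 and 12.14 in IUGR litters, against 9.69, 10.50, 11.11 and 9.54 in sham litters. The overlap was again between sham replicate 3 and IUGR replicate 3 only, with a difference of 1.31 ± 0.38 (SE, limma adjusted p = 0.123). Bhlha15 was 9.74, 9.52, 9.24 and 10.53 in IUGR litters, against 8.13, 8.70, 9.01 and 8.22 in sham litters. All 4 IUGR litters were above all sham litters, by 1.24 ± 0.30 (SE), and Bhlha15 had the smallest adjusted p of the 4 factors, at 0.098 (limma). Without sham replicate 4 the factors differed by 1.03 to 1.27. Within the sham group, replicates 1 and 4 were the lowest litters for each of the 4 factors. Without both, the difference was 0.94 for Ptf1a, 0.62 for Rbpjl, 0.72 for Nr5a2 and 0.90 for Bhlha15.

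The trimeric complex of PTF1A is known in rat and mouse to bind a bipartite site, an E box (CANNTG) with a TTTCCCA box a short distance away. The promoters of the measured genes were searched for it on both strands, in the 300 bases from 250 before to 50 after the annotated start (RefSeq, rat build GRCr8), and 24 of the 28 genes had such a sequence. An E box and a TTTCCCA box with 2 to 20 bases between them, not overlapping, were present in 2 of 24 promoters (8.33%), those of Ctrb1 and Cel, against 1.35% of 33469 rat promoters. TTTCCCA alone was in 5 of 24 (Ctrb1, Cel, Cela3b, Prss1 and Spink1; 20.8%, against 8.23%), and CANNTG in 20 of 24 (83.3%, against 72.1%). Read in the direction of the gene, the E box was CACCTG in both promoters with a pair. The pairs are shown first because they hold the letters of the known site, with E box and TTTCCCA box (or its reverse complement) in capitals.
Ctrb1 pair: CACCTGtcctTTTCCCA
Cel pair: TGGGAAAaatggcccatcccaCACCTG

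Read in the direction of the gene, the 2 pairs differ in layout, whereas on the strand that carries TTTCCCA the E box comes first in both. In Ctrb1 the E box starts at position -206 from the transcript start and 4 bases separate it from TTTCCCA. In Cel the E box starts at position -85 and TTTCCCA lies before it on the opposite strand, 14 bases away. The motif of NR5A2 was searched as CAAGGTCA and that of BHLHA15 as CATATG, which is also a form of CANNTG. CAAGGTCA was present in 1 of 24 promoters, that of Cel, against 1.52% of all promoters, and CATATG in 0 of 24, against 4.11%. Apart from the N positions of CANNTG, only exact letters were searched, so a box with any other base was not counted. A match is a run of letters and no evidence of binding. A promoter without a match may hold a variant of the site or be bound elsewhere. The whole windows of the 2 genes with a pair are given with Cela3b, which has a TTTCCCA box without a pair and passed without sham replicate 4. Capitals mark TTTCCCA, the paired E box and CAAGGTCA, or their reverse complements. Ctrb1 lies at chr19:56566929-56567228 on the minus strand, Cel at chr3:32288970-32289269 on the minus strand and Cela3b at chr5:154920284-154920583 on the minus strand.
Ctrb1 promoter: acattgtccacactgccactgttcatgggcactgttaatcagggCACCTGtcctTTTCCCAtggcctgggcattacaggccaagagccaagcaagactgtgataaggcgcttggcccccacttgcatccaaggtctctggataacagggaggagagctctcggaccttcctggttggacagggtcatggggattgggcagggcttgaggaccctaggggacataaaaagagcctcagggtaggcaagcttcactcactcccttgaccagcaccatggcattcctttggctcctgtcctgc
Cel promoter: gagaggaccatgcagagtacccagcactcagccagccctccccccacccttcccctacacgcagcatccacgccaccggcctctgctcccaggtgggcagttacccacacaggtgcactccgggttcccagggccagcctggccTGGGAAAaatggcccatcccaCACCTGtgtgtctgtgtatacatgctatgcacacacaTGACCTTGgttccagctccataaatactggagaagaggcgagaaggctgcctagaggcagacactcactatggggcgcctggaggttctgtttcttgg
Cela3b promoter: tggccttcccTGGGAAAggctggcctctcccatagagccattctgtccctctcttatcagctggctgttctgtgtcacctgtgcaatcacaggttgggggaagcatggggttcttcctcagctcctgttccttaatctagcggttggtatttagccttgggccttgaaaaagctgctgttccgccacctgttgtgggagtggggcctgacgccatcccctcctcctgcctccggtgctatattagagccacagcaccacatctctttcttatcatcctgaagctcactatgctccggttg

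The 5 genes with a TTTCCCA box did not share a size of difference. Of the 2 with a pair, Ctrb1 differed by 0.30 and Cel by 1.03. Cela3b differed by 1.35, Prss1 by 0.85 and Spink1 by 0.26. Ctrb1 lies at the top of the array's range, as described next.

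Among the first acinar products, Cpa1 and Ctrb1 had small differences, at a level close to the top of the array. Ctrb1, the gene of chymotrypsinogen B, was 14.06, 14.02, 14.03 and 14.03 in IUGR litters, against 13.86, 13.97, 14.05 and 13.08 in sham litters. Cpa1, the gene of carboxypeptidase A1 and in mouse a marker of tip progenitors, was 14.05, 13.97, 13.89 and 13.99 in IUGR litters, against 13.76, 13.95, 14.03 and 13.04 in sham litters. In both genes sham replicate 4 alone stood below the rest, and the other 7 litters lay together. The differences were 0.28 ± 0.21 for Cpa1 and 0.30 ± 0.20 for Ctrb1 (SE), and without sham replicate 4 they were 0.06 and 0.08.

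Cpa1, Ctrb1, Amy2a3, Pnliprp1 and Clps are the 5 genes near the top of the array. Differences near that limit can be compressed, and the median difference of these 5 genes was 0.40, against 1.24 for the other 23. Over all genes with a mean signal of 13 to 14, the 5th to 95th percentile of the difference was -0.23 to 0.36, and for a mean of 9 to 10 it was -0.39 to 0.94. Of all genes with a mean of 13 to 14, 0 were higher by more than 1. The 8 acinar genes with a mean of 9 to 10 had a median difference of 1.17, against 0.21 for all genes of that class.

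**Figure D2:**
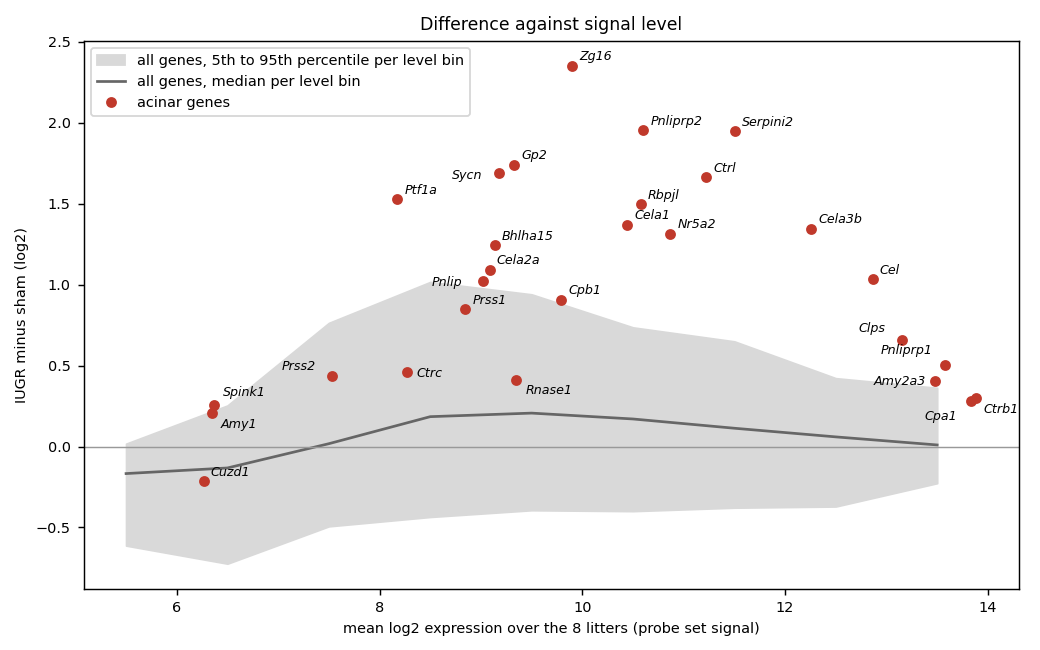
Difference between IUGR and sham litters (log2, y axis) against the mean log2 expression over the 8 litters (x axis). Red points are the 28 acinar genes, the grey band is the 5th to 95th percentile of all 14506 genes in bins of 1 log2 unit and the grey line their median; most acinar genes with a mean of 9 to 13 lie above the band, and the 5 at the bright end have differences of 0.28 to 0.66.

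Cpb1, the gene of carboxypeptidase B1, was the 1 early enzyme with room at the top. It was 10.07, 9.92, 9.45 and 11.54 in IUGR litters, against 10.16, 8.64, 9.50 and 9.05 in sham litters. The groups overlapped, with sham replicate 1 above 3 of the IUGR litters, and the difference was 0.91 ± 0.48 (SE, limma adjusted p = 0.259). It rested largely on IUGR replicate 4: without that litter it was 0.47. In sham replicate 1, Cpb1 was the highest of the sham litters while each of the 4 factors was lower there than in sham replicates 2 and 3.

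The late products Pnlip, Amy2a3 and Gp2 differed by different amounts. Gp2, the gene of the main glycoprotein of the granule membrane, was 10.15, 10.25, 9.35 and 11.06 in IUGR litters, against 9.20, 8.79, 9.15 and 6.71 in sham litters. All IUGR litters were above all sham litters, and the difference was 1.74 ± 0.59 (SE, limma adjusted p = 0.140). Sham replicate 4 stood 2.08 below the next sham litter, and without it the difference was 1.16. Pnlip, the gene of pancreatic triglyceride lipase, was 9.26, 9.46, 8.97 and 10.43 in IUGR litters, against 8.01, 9.16, 9.45 and 7.40 in sham litters. Sham replicates 2 and 3 lay among the IUGR litters, and the difference of 1.02 ± 0.50 (SE, limma adjusted p = 0.227) was 0.65 without sham replicate 4.

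Amy2a3, the gene of pancreatic amylase, was 13.74, 13.69, 13.61 and 13.68 in IUGR litters, against 13.49, 13.67, 13.74 and 12.21 in sham litters. As with Cpa1, sham replicate 4 alone was low, and the difference of 0.40 ± 0.32 (SE) was 0.05 without it. Another probe set of Amy2a3 gave 0.47. Amy1, the gene of salivary amylase, had a mean of 6.35, in the dim range of the array, and differed by 0.20.

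Set against each other per litter, late products varied more than early enzymes. With each gene centred on its mean over the 8 litters, the mean of the late products minus that of the early enzymes was 0.22, 0.39, 0.08 and 0.43 in IUGR replicates 1 to 4, against -0.47, 0.25, 0.15 and -1.05 in sham replicates 1 to 4. The group means were 0.28 ± 0.16 in IUGR litters and -0.28 ± 0.61 in sham litters (SD, n = 4 each), a difference of 0.56. Sham replicates 2 and 3 lay within the range of the IUGR litters, and sham replicates 1 and 4 made the difference: without both it was 0.08, and without sham replicate 4 it was 0.30. Cpa1 and Ctrb1 of the early group and Amy2a3 of the late group sit near the top of the array, so the order of onset and the signal level cannot be told apart in this contrast. With those 3 left out, a choice made after the values were seen, Pnlip and Gp2 together minus Cpb1 differed by 0.48.

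The factors were set against the early enzymes in the same way. The mean of the 4 factors minus that of the early enzymes, with genes centred, was 0.44, 0.38, 0.20 and 0.78 in IUGR litters, against -1.19, 0.01, 0.09 and -0.70 in sham litters. The groups did not overlap, and the difference was 0.90. It was 0.81 without sham replicate 4, 0.65 without sham replicate 1 and 0.40 without both. The same limit of the bright early enzymes applies here.

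**Figure D3:**
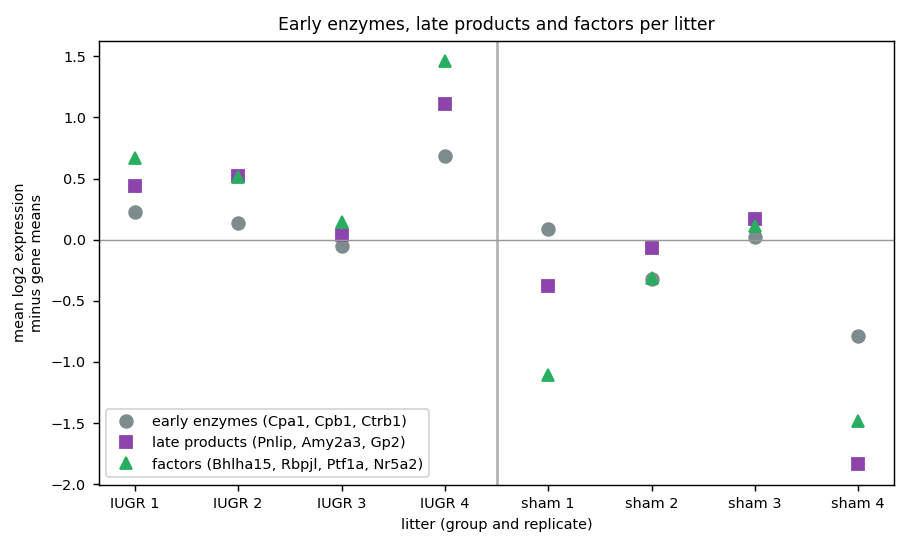
Mean log2 expression of the early enzymes (grey circles), the late products (purple squares) and the transcription factors (green triangles) in each litter, each gene first centred on its mean over the 8 litters, with IUGR litters on the left and sham litters on the right of the line. In sham replicate 4 the late products stand at -1.84, the factors at -1.49 and the early enzymes at -0.78, whereas in sham replicate 3 all 3 groups lie between 0.02 and 0.17.

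The lipases form a neighbouring trio, in which Pnliprp1 and Pnliprp2 are known as the lipases of the perinatal rat and Pnlip as that of the weaned and adult rat. Pnliprp2 was 11.64, 11.88, 10.48 and 12.32 in IUGR litters, against 10.23, 10.56, 9.97 and 7.75 in sham litters. Only sham replicate 2 reached above an IUGR litter, replicate 3, and the difference was 1.95 ± 0.64 (SE, limma adjusted p = 0.137), or 1.33 without sham replicate 4. Pnliprp1 was 13.90, 13.85, 13.72 and 13.85 in IUGR litters, against 13.61, 13.81, 13.90 and 12.00 in sham litters. It was near the top of the array in 7 litters and differed by 0.50 ± 0.39 (SE), or 0.06 without sham replicate 4. So Pnliprp2 and Pnlip differed by 1.95 and 1.02 while Pnliprp1, near the top of the array, differed by 0.50.

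Cel, which encodes bile salt-stimulated lipase, was 13.48, 13.30, 13.24 and 13.51 in IUGR litters, against 12.48, 12.82, 13.05 and 11.04 in sham litters. The groups did not overlap, with a difference of 1.03 ± 0.40 (SE, limma adjusted p = 0.159), and 0.60 without sham replicate 4. Clps, the gene of colipase, the cofactor of pancreatic lipase, differed by 0.66, with IUGR litters between 13.34 and 13.65 and sham litters between 11.67 and 13.39, and by 0.28 without sham replicate 4.

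Of the granule proteins, Zg16 had the largest difference of the 28 genes and Sycn and Gp2 also lay without overlap between the groups. Zg16, the gene of a lectin-like protein on the inner face of the zymogen granule, was 11.33, 10.59, 10.73 and 11.64 in IUGR litters, against 8.62, 8.91, 9.52 and 7.85 in sham litters. Every IUGR litter was more than 1 above every sham litter. The difference was 2.35 ± 0.37 (SE; 95% interval 1.50 to 3.20), a 5.11-fold higher signal, and Zg16 had the smallest adjusted p of the 28 genes, 0.053 (limma), just above the threshold. Without sham replicate 4 it was 2.06 with an adjusted p of 0.045, and over all settings tried the adjusted p lay between 0.0029 and 0.226. Sycn, which encodes syncollin, a granule protein involved in exocytosis, was 10.34, 9.75, 9.42 and 10.58 in IUGR litters, against 8.60, 8.45, 8.71 and 7.57 in sham litters. The groups stood apart, by 1.69 ± 0.32 (SE, limma adjusted p = 0.072, and between 0.0037 and 0.236 over all settings).

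Cuzd1, a gene of a granule membrane-associated protein, was the exception in direction. It was 6.13, 6.11, 6.21 and 6.18 in IUGR litters, against 6.18, 6.64, 6.30 and 6.37 in sham litters, a difference of -0.21 ± 0.11 (SE, limma adjusted p = 0.240). The gene sat at the dim end of the array, and all genes with a mean signal of 6 to 7 had a median difference of -0.13. After quantile normalization the difference of Cuzd1 was -0.02.

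Among the proteases, Ctrl, Cela2a and Cela3b had the smallest p in limma's test, although Cela1 had a larger difference than either of these elastases. Ctrl, the gene of chymotrypsin-like protease, was 12.30, 11.70, 11.73 and 12.48 in IUGR litters, against 10.48, 10.94, 11.15 and 8.98 in sham litters. The groups did not overlap, with a difference of 1.67 ± 0.46 (SE, limma adjusted p = 0.117). Cela3b, an elastase gene, was 13.10, 12.83, 12.73 and 13.05 in IUGR litters, against 11.86, 12.00, 12.34 and 10.13 in sham litters. Its difference of 1.35 ± 0.44 (SE, limma adjusted p = 0.134) was 0.86 without sham replicate 4, where it passed with an adjusted p of 0.049 (0.025 to 0.263 over all settings). The other 3 sham litters lay between 11.86 and 12.34.

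Cela2a was 9.85, 9.52, 8.89 and 10.27 in IUGR litters, against 8.44, 8.61, 9.00 and 8.11 in sham litters. Sham replicate 3 lay above IUGR replicate 3, and the difference was 1.09 ± 0.30 (SE, limma adjusted p = 0.119). Cela1, whose rat enzyme is elastase 1, differed by 1.37 ± 0.59 (SE), between 10.41 and 11.94 in IUGR litters and 8.05 and 10.73 in sham litters, or 0.80 without sham replicate 4. Ctrc, the gene of chymotrypsin C, which degrades trypsinogen, differed by 0.46 ± 0.17 (SE).

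The trypsinogens measured here, Prss1 and Prss2, gave smaller differences than Ctrl and the elastases. Prss1 was 9.10, 9.06, 8.76 and 10.16 in IUGR litters, against 7.89, 9.13, 8.62 and 8.03 in sham litters. IUGR replicate 4 was high and sham replicate 2 lay among the IUGR litters, and the difference was 0.85 ± 0.36 (SE, limma adjusted p = 0.186), or 0.55 without IUGR replicate 4. Prss2 differed by 0.44, or 0.19 without IUGR replicate 4. Trypsinogen genes are near-identical copies, so their probe sets may read each other's transcripts and these values are uncertain for any single gene. Of related genes, Prss3b, looked up after the other values were seen, differed by 0.35, and Try10, from the list of further acinar products, by -0.20.

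Serpini2, an inhibitor gene of the acinar cell, had the widest spread of the 28 genes. It was 12.51, 12.46, 12.09 and 12.86 in IUGR litters, against 11.22, 11.97, 12.21 and 6.74 in sham litters. Sham replicate 4 stood 4.47 below the next sham litter, and sham replicate 3 lay within the IUGR range. The difference of 1.95 ± 1.11 (SE, limma adjusted p = 0.287) was 0.68 without sham replicate 4. Spink1, a trypsin inhibitor gene, differed by 0.26 at a mean of 6.37, and Spink1l, which carries Spink3 as an older name, by 0.04, both in the dim range. Rnase1, the gene of pancreatic ribonuclease, differed by 0.41, with IUGR litters between 9.20 and 9.84 and sham litters between 8.40 and 9.63, and by 0.16 without sham replicate 4. A probe set annotated to both Rnase1 and Rnase1l2 was not tested. It lay between 9.14 and 10.40 in IUGR litters and between 7.38 and 9.65 in sham litters.

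**Figure D4:**
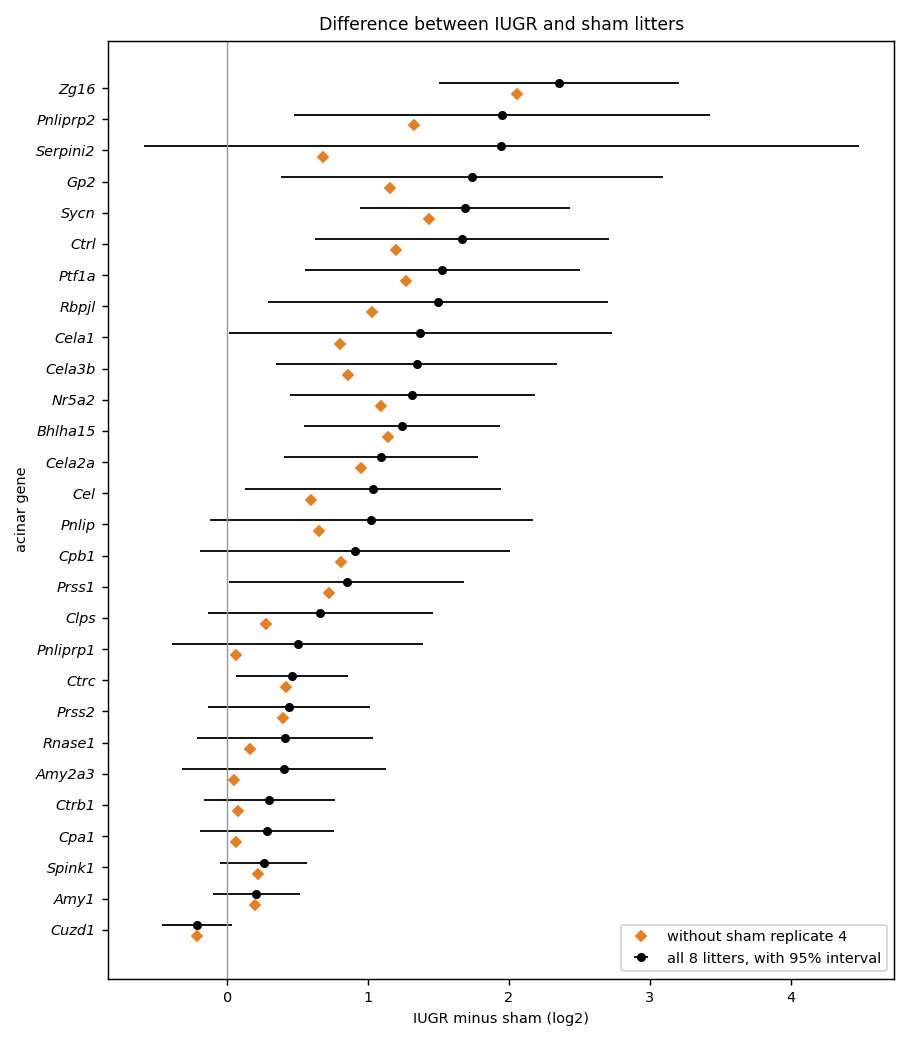
Difference between IUGR and sham litters (log2, x axis) for the 28 acinar genes, sorted by size. Black points with bars are the limma estimates with 95% intervals over all 8 litters, and orange diamonds the estimates without sham replicate 4; Zg16 is at the top with 2.35 and Cuzd1 at the bottom with -0.21, and 12 genes, among them Serpini2, Cpa1 and Amy2a3, moved by more than 1.5 times without that litter.

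Further lists of acinar genes were set beside the 28. Of 16 further acinar products, 14 were measured, 9 of these were higher in IUGR litters and 5 lower, against 55.1% of all genes higher. The list median was 0.81, and 1 gene rose, against 0.234% of all genes that passed as higher. That was Gnmt, a methyltransferase gene active in exocrine pancreas and liver, which was 8.89, 8.37, 9.30 and 9.39 in IUGR litters, against 7.05, 6.87, 6.92 and 6.63 in sham litters (difference 2.12 ± 0.22, SE, limma adjusted p = 0.043, and 0.0014 to 0.226 over all settings). The next by p were Prss8 (1.35), Pla2g1b, a phospholipase (0.84), and Erp27, a chaperone of the acinar endoplasmic reticulum (1.05), which did not pass. None of the 14 fell.

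In the secretion machinery, 12 of the 14 measured of 16 listed genes were higher, against 55.1% of all genes. The list median was 0.64, and none passed, against 0.234% of all genes that passed as higher. Aqp12a, an aquaporin gene of acinar cells, was 10.80, 10.69, 10.54 and 11.43 in IUGR litters, against 9.01, 9.38, 9.66 and 7.27 in sham litters, a difference of 2.04 ± 0.49 (SE, limma adjusted p = 0.096). Rab27b and Rab3d, small GTPases of the secretory granule, differed by 0.89 and 0.64, and the cotransporter gene Slc12a2 by 0.74. Of the 14 genes, 5 were without overlap between the groups, against 10.0% of all genes, and these 4, named by smallest p, were among them. Without sham replicate 4, 3 of the 14 genes passed, against 1.06% of all genes that passed as higher. These were Aqp12a (1.52, limma adjusted p = 0.048, and 0.0060 to 0.252 over all settings), Aqp8 (1.14, limma adjusted p = 0.041) and Ano1 (0.80, limma adjusted p = 0.049).

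Among the partners of the factors, 12 of the 14 measured of 16 listed genes were higher, against 55.1% of all genes. The list median was 0.23, and 1 rose, against 0.234% of all genes that passed as higher. Hnf4a, a nuclear receptor gene also used by liver, gut and endocrine cells, was 11.40, 10.54, 10.91 and 11.36 in IUGR litters, against 9.28, 9.82, 9.37 and 9.27 in sham litters, and rose by 1.61 ± 0.22 (SE, limma adjusted p = 0.043, and 0.0014 to 0.226 over all settings). Foxa3, Gata4 and Foxa2, factors of endoderm, differed by 1.52, 1.55 and 0.71 and did not pass. Gnmt and Hnf4a each lost their call in 10 of 18 alternatives: under all 3 other scalings, with the replicate block, with all probe sets tested together, and without IUGR replicate 1, 3 or 4 or sham replicate 2 or 3.

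Markers of other cell types also differed on the same arrays. Beside the counts of each list, 55.1% of all genes were higher and 0.234% passed as higher. The mean level of the 28 acinar genes was 10.27 to 11.15 in IUGR litters and 8.73 to 10.22 in sham litters. Duct markers were higher in 8 of 8 genes (median 0.86), of which the keratin gene Krt8 rose (1.07, limma adjusted p = 0.043, and 0.0014 to 0.226 over all settings, with the call lost in 12 of 18 alternatives, among them leaving out any IUGR litter or sham replicate 2 or 3), with list means of 10.81 to 11.16 in IUGR litters and 9.67 to 10.25 in sham litters. Liver markers were higher in 13 of 13 (median 1.87), with 11.67 to 12.96 in IUGR litters and 9.29 to 11.81 in sham litters. Like the acinar mean, the liver mean was highest in IUGR replicate 4 and lowest in sham replicate 4, but sham replicate 1 was the highest of the sham litters for liver and the second lowest for acinar genes. Stomach markers were higher in 4 of 4 (median 2.01), with means of 8.33, 9.55, 9.14 and 6.59 in IUGR replicates 1 to 4, against 6.39 to 6.63 in sham litters. The list mean of IUGR replicate 4, the litter with the highest acinar level, was thus at the sham level. Of the stomach genes, Pgc was still higher in that litter, at 7.33 against 6.71 to 7.07 in sham litters.

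Endocrine markers differed little over all 8 litters, but this rested on sham replicate 4. They were higher in 6 of 10, with a median of 0.05, or 0.42 without sham replicate 4. The list means were 11.40 to 11.89 in IUGR litters, against 11.25, 11.19, 11.21 and 12.61 in sham replicates 1 to 4. All 4 IUGR litters thus lay above sham replicates 1 to 3. Sham replicate 4 thus had the highest endocrine and the lowest acinar mean of the 8 litters. Intestine markers were higher in 4 of 6 (7.50 to 10.59 in IUGR litters and 6.82 to 9.21 in sham litters). Mesenchyme markers were higher in 0 of 10 (median -0.65, 10.33 to 11.51 in IUGR litters and 11.53 to 12.19 in sham litters) and blood markers in 0 of 5 (median -0.65, 10.51 to 11.59 and 11.62 to 12.03). The 3 measured salivary gland markers stayed at the dim end in all litters, with list means of 5.70 to 5.80 in IUGR and 5.85 to 6.06 in sham litters. The array reports no zeros, so no marker can be called absent. The part of duct, liver, stomach and endocrine transcripts in the acinar differences was not tested.

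**Figure D5:**
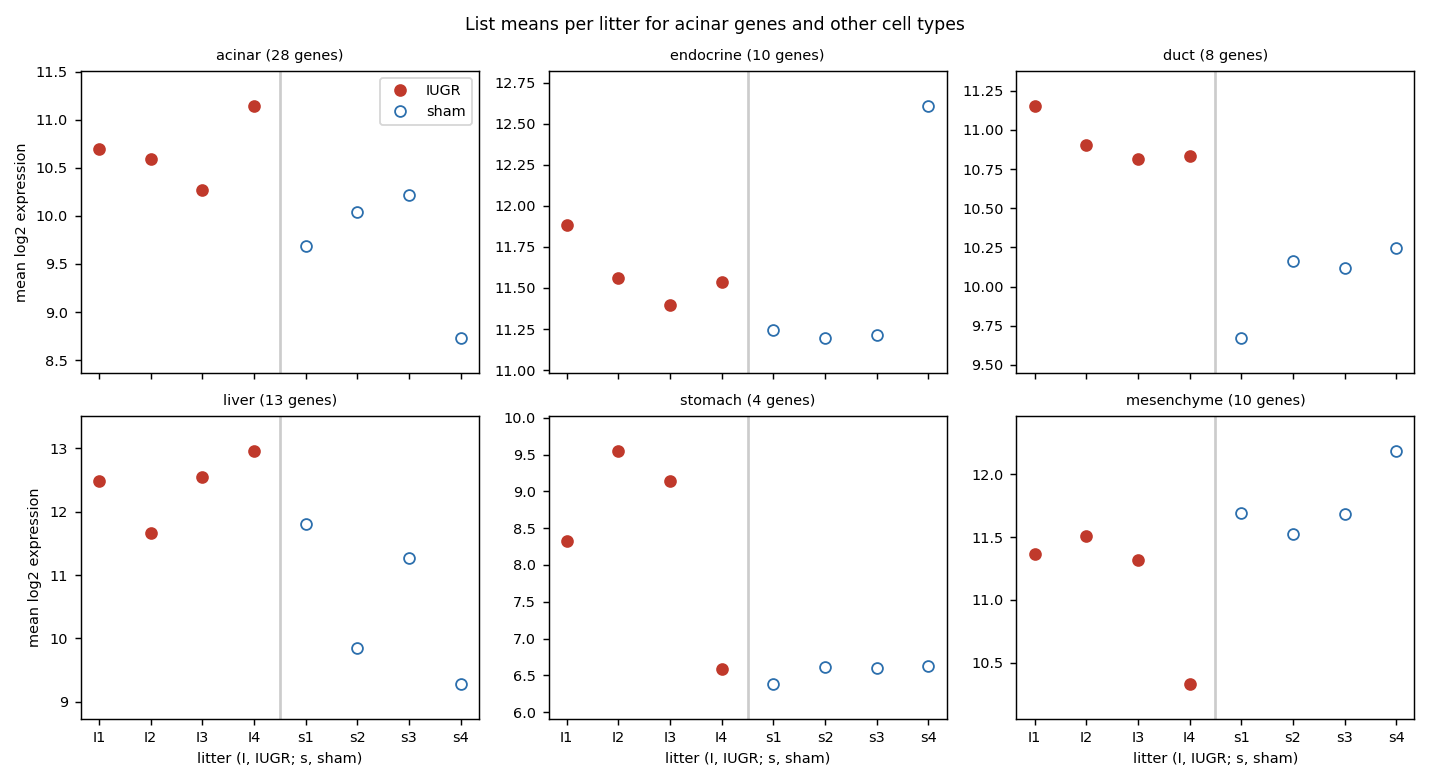
Mean log2 expression of the 28 acinar genes and of 5 marker lists in each litter, with IUGR litters (filled red) left and sham litters (open blue) right of the line, each panel on its own axis. Sham replicate 4 is at 8.73 for acinar and at 12.61 for endocrine genes, the lowest and the highest of the 8 litters, and the stomach list is above the sham litters in IUGR replicates 1 to 3 only.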

How the data were processed

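RNA of pooled fetal islets from 8 litters was labelled with a GeneChip WT kit, and each litter was hybridised to its own array. The deposited values are log2 expression for 29214 probe sets, made by the authors with RMA, per the submitters' processing notes, which give no version or settings. Values near the top of the array can be compressed. Scanner files were not used here. Of the probe sets, 15310 were annotated to 1 gene, 323 to several and 13581 to none; 15279 of the 15310 matched a RefSeq gene, and 31 kept the platform's name. The brightest probe set stood for each of 527 genes with several, giving 14506 genes.

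IUGR and sham litters were compared with limma 3.58.1 (lmFit and eBayes) in R 4.3.3 on the log2 values, with no filter on dim genes and Benjamini-Hochberg adjustment over all genes at 0.05. Tables and figures were made with Python 3.11.15, pandas 2.3.3 and matplotlib 3.10.9, and the test was checked on simulated data. All measured acinar genes were named. Every litter's value is given for the factors, the early and late products, the 6 genes with the smallest p and those with the largest and smallest difference, and from each other list of acinar genes up to 4 genes by smallest p are named. Aqp8 and Ano1 were named as well because they passed without sham replicate 4. Members and lists were chosen with earlier results of these data known, and early and late products were grouped from background knowledge. Alternatives were other scalings, a dim-gene filter, another prior, weights per array, a block for the replicate number, other probe set rules and each litter left out. Leaving out sham replicates 1 and 4 together, or the genes near the top of the array, was added after the data were seen. Replicate numbers did not pair the litters: same-numbered litters had correlations of -0.43, 0.10, -0.12 and -0.13 in their deviations from the group means. Precision is limited by the 4 arrays per group.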

Additional observations from a re-analysis of the deposited data

Results flagged for a closer look

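In 3 genes sham replicate 4 stood far below the other sham litters, by a gap that exceeded the limit of Dixon's test for 4 values, which sets the gap to the nearest litter against the whole range of the group. Gp2 was 6.71 in sham replicate 4 (gap 0.838 of the range), Pnliprp1 was 12.00 (0.848) and Amy2a3 was 12.21 (0.832). In all, 56 groups of 4 litters were tested over the 28 genes. Chance alone flags about 1 in 20 groups, and 3 flags in 56 groups are near that share. Genes measured on the same array are not independent, so the 3 cases are 1 litter seen 3 times. The values without that litter are given with each gene.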

How the results depend on the processing

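The median difference of the 28 acinar genes was 1.03. Quantile normalization gave 0.84 and cyclic loess 0.85. Centring each array on its median gave 0.80 and put the median of all genes at -0.19, against 0.04 without it. With array weights it was 0.36, and without sham replicates 1 and 4 together 0.42. Over the fits that left out 1 litter each it was 0.70 to 1.26. The number of acinar genes that passed was 0, but 1 without the 30% dimmest genes, 7 with array weights (26.4% of all genes then passed as higher), 5 without sham replicates 1 and 4, and 0 to 2 with 1 litter left out, the 2 arising without sham replicate 1 or sham replicate 4. With the replicate block the count stayed 0 and the median 1.03, and 0 of all genes passed, so Gnmt, Hnf4a and Krt8 lost their call. The difference of late minus early products was 0.56, 0.14 with array weights and 0.080 without sham replicates 1 and 4.

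Some small differences changed sign. With array weights Cpa1 was -0.031, Amy2a3 -0.023, Pnliprp1 -0.023 and Rnase1 -0.020. Without sham replicates 1 and 4, Cpa1 was -0.012, Amy2a3 -0.028 and Pnliprp1 -0.021. Amy1 was -0.026 after median centring. Of the other lists, Apoa4 ranged between -0.61 and 0.011 with 1 litter left out, the highest value without sham replicate 4, while quantile normalization put Smr3b at 0.018 and Oprpn at 0.15, and cyclic loess put them at 0.096 and 0.11. The cause was not tested. Without IUGR replicate 4, Cpb1 was 0.47, Prss1 0.55, Prss2 0.19 and Amy1 0.08, and without sham replicate 2 Cuzd1 was -0.12. Dim probe sets (Amy1, Spink1, Cuzd1) and those near the top of the array limit what a difference can show.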
